A study of Mus musculus with 6 samples.

Results

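Transcripts of 10 transcription factor genes of the distal lung epithelium were examined in sorted mouse alveolar type II (AT2) cells that carried or lacked a conditional deletion of Dlk1. The genes were chosen by name as factors that set or maintain lung epithelial identity: Nkx2-1, Foxa1, Foxa2, Gata6, Cebpa, Cebpd, Klf5, Elf3, Grhl2 and Tfcp2l1. All 10 had a row among the 23337 gene symbols counted in each library, and all 10 were among the 12899 genes with enough counts to be tested. The mutant mice were SpC-CreER/Dlk1flox/ROSA-Tomato and the wild-type mice SpC-CreER/ROSA-Tomato, so both groups carried an inducible Cre expressed from the surfactant protein C promoter and a Tomato reporter, and only the mutants carried the floxed Dlk1. Both groups had acute lung injury from the bacterium Pseudomonas aeruginosa, and cells positive for Tomato were collected by flow sorting 10 days later. There were 3 mutant and 3 wild-type libraries. The labels do not give the age of the mice or say whether libraries are from separate animals, and p-values here reflect only the spread between these samples. Recombination was limited to cells in which the surfactant protein C promoter was active, and the labels also mention a period of culture without saying whether it came before RNA isolation.

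AT2 cells secrete surfactant, and in repair they divide and give rise to flat alveolar type I (AT1) cells. Their identity depends on NKX2-1, a homeodomain protein that specifies the lung in the embryo and is needed in both alveolar cell types, and on partners that bind near it at surfactant genes. FOXA1 and FOXA2 are forkhead proteins that can open closed chromatin, GATA6 is a zinc finger protein of foregut-derived epithelium, and C/EBPα is a leucine zipper protein needed for AT2 maturation. Dlk1 encodes a Delta-like protein of the cell surface.

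For orientation, the RefSeq promoter windows (GRCm38.p6, from 250 bases before to 50 bases after an annotated start site) were searched for short core motifs of the families studied. A window was found for 6 of the 10 genes (Cebpa, Elf3, Foxa1, Foxa2, Nkx2-1 and Tfcp2l1), and windows of Cebpd, Gata6, Grhl2 and Klf5 were not used here. The windows of Cebpa and Nkx2-1 are shown because these were the most abundant transcripts of the set per length, and that of Foxa1 because it was the only window of a member to hold a forkhead core. Each is written 5′ to 3′ on the strand of the gene, with matches in capitals. Cebpa lies on the plus strand at chr7:35119043-35119342, Nkx2-1 on the minus strand at chr12:56536859-56537158, and Foxa1 on the minus strand at chr12:57546062-57546361.
Cebpa: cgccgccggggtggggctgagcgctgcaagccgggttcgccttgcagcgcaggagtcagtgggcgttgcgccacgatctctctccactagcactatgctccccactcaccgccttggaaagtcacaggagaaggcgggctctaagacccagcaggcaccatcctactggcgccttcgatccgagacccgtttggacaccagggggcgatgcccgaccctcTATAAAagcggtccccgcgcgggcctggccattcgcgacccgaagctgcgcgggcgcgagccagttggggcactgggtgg
Nkx2-1: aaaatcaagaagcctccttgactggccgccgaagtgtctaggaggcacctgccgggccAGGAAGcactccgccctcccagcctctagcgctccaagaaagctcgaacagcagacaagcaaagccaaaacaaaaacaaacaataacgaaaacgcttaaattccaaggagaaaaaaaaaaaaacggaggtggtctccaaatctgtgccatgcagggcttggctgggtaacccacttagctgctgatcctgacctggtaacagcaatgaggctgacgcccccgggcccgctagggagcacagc
Foxa1: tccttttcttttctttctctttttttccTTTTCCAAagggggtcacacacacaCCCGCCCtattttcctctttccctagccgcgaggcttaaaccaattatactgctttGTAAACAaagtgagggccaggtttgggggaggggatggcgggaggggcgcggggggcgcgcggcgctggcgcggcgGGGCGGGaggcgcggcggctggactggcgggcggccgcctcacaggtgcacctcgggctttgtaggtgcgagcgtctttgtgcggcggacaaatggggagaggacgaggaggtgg
Each motif was searched on both strands. The forkhead core was TGTTTNC, and the C/EBP motif was a pair of half-sites, TTNNNCAA. For NKX2-1 the core was CAAGNG, for GATA proteins AGATAA and for ETS proteins AGGAAG. The Grainyhead core was AACNNGTT, the GC box bound by KLF and SP proteins was GGGCGGG, and the TATA box was TATAAA. No matches of different motifs overlapped in the member windows. The capitals mark a TATA box that begins 30 bases before the start site in Cebpa and an ETS core in Nkx2-1. In Foxa1 they mark a C/EBP match, GC boxes on both strands and the reverse complement of the forkhead core. Over all 32851 windows in the table, 20.5% held the forkhead core, 36.7% the C/EBP motif, 35.4% the ETS core, 25.6% the GC box and 13.6% the TATA box. The Tfcp2l1 and Elf3 windows each held the NKX2-1 core, which was present in 46.1% of all windows. The GATA core, held by 11.2% of all windows, was found at 1 of the annotated start sites of Foxa2, and the Grainyhead core, held by 4.20%, was found in none of the member windows. These letter matches are a description of the sequence and carry no measurement of binding.

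Library totals ran from 23718958 to 30695994 counts in the mutant group and from 22511461 to 25332204 counts in the wild-type group. Dlk1 itself had at most 2 counts in any mutant and at most 2 in any wild-type library, too few to check the labels. The 10 AT2 markers (Sftpc, Sftpb, Abca3 and others) summed to between 136575 and 150925 CPM (counts scaled to the library total, CPM) in the mutant libraries and between 147904 and 172208 CPM in the wild-type libraries, and no AT2 marker was at 0 in any library. Mutant 1 stood apart, with marker sums above the mean of the other 5 libraries by 7.86-fold (club and goblet cells), 11.4-fold (endothelial cells) and up to 50.4-fold (fibroblasts). Wild type 2 was the only library with a high level of Xist (184.6 CPM, against at most 2.93 CPM in the others), the transcript of the inactive X chromosome. It was also the only one with a low level of the Y-linked gene Ddx3y (2.88 CPM, against 49.8 to 78.2 CPM in the others). This is the pattern of a female sample, and that of the others is male. Named values that leaving out mutant 1 moved by more than 1.5 times are given with and without it.

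**Figure D1:**
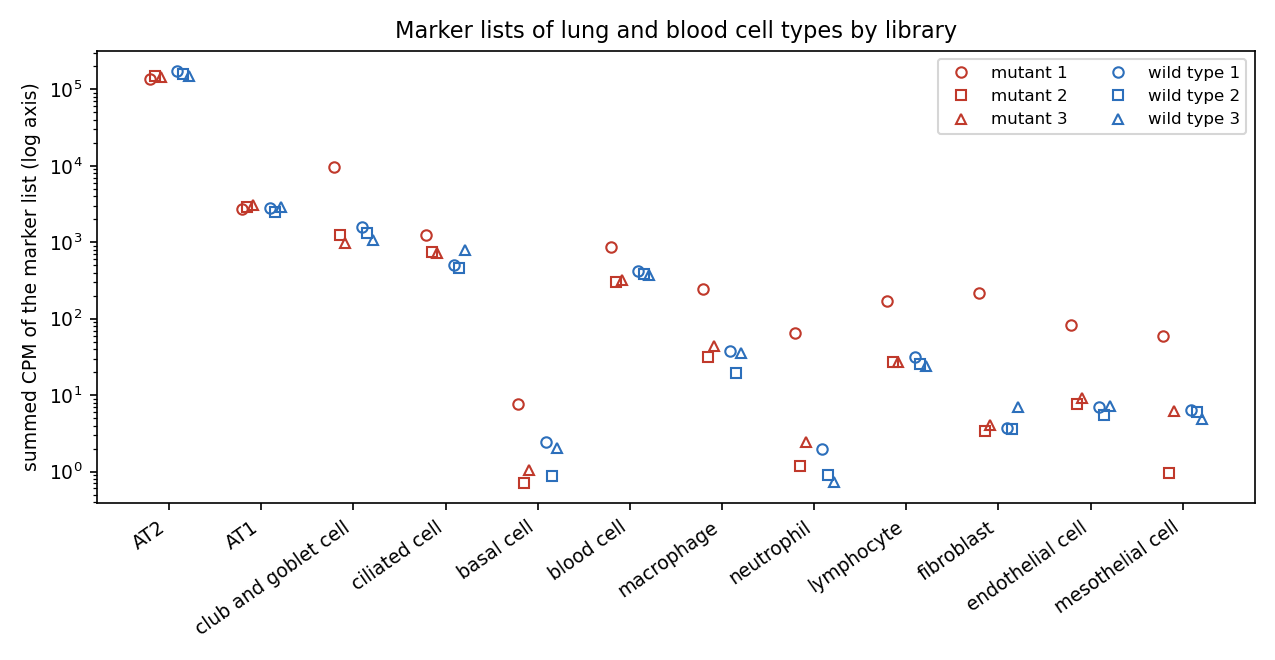
Summed CPM of the total (log axis) of 12 lists of cell type markers in each library, mutants in red left of wild types in blue, with a symbol for each replicate number. Mutant 1 (red circle) lies above the other 5 libraries for every list from club and goblet cells to mesothelial cells, and the AT2 sum is between 136575 and 172208 CPM in all 6.

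Cebpa and Nkx2-1 were by far the most abundant of the 10 transcripts when levels were divided by exon length. As TMM-scaled CPM per kilobase of exon, Cebpa stood at 196 ± 43.8 and Nkx2-1 at 180.2 ± 11.6 over all 6 libraries (mean ± SD, n = 6). This placed them at the 98.3 and 98.1 percentiles of the 11664 tested genes that had a length. Elf3, an epithelial ETS factor, followed at 62.1 ± 12.9, Foxa2 at 43.5 ± 6.38, and Tfcp2l1, a CP2 family factor known from mouse embryonic stem cells and the kidney, at 41.4 ± 5.47 CPM per kilobase. Foxa1 stood at 30.9 ± 3.25, Gata6 at 27.6 ± 3.42 and Cebpd at 23.7 ± 2.42 CPM per kilobase. Grhl2, which controls epithelial junction genes, stood at 18.1 ± 1.42, and Klf5, a zinc finger protein of alveolar repair, was lowest at 13.7 ± 2.13 CPM per kilobase, still at the 67.5 percentile. The ranges over libraries separated Nkx2-1 from Elf3, Tfcp2l1 from Foxa1 and Cebpd from Grhl2, while the other neighbours in this order overlapped. In particular, Cebpa was above Nkx2-1 in 3 of the 6 libraries. Exon lengths came from GENCODE M21 on GRCm38, and which isoform the cells used was not measured. In that annotation Nkx2-1, Gata6, Cebpa, Cebpd, Elf3, Grhl2 and Tfcp2l1 each overlap a gene on the opposite strand that has no row of its own under that symbol in the files, and whether the counting used strand is not known here, so reads of such a pair cannot be told apart.

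Mutant libraries were set against wild-type libraries to see whether these factors differed with the deletion. All 10 factors had a negative log2 fold change under TMM scaling, as 48.9% of all tested genes did, but Nkx2-1, Cebpd and Klf5 had a positive one when libraries were scaled on pan-epithelial genes. None passed the test. Cebpa had the largest difference, to 0.724-fold of wild type, followed by Elf3, Gata6 and Foxa1, and Nkx2-1 was nearly level between the groups. In edgeR's quasi-likelihood test with Benjamini-Hochberg adjustment at 5%, 0 of the 10 genes were called, where 0% of all 12899 tested genes were (849 had an unadjusted p under 0.05). The members' adjusted p ran from 0.737 to 0.944. At an unadjusted p under 0.05 the test gave 2 of the 10, Cebpa and Gata6, both lower in the mutant, where 2.89% of all tested genes, and 3.77% of those with at least 10 CPM, were lower at that level. DESeq2 called 0 of the 10 and 0.306% of 15018 genes, and limma-voom with quality weights called 0 of the 10 and 0 genes in all (5 of the 10 were lower at an unadjusted p under 0.05, as were 5.24% of all genes). The members' median log2 fold change was -0.15, and that of all tested genes was 0.00. Because these are bulk samples, fewer cells expressing a gene and less of its RNA per cell cannot be told apart.

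**Figure D2:**
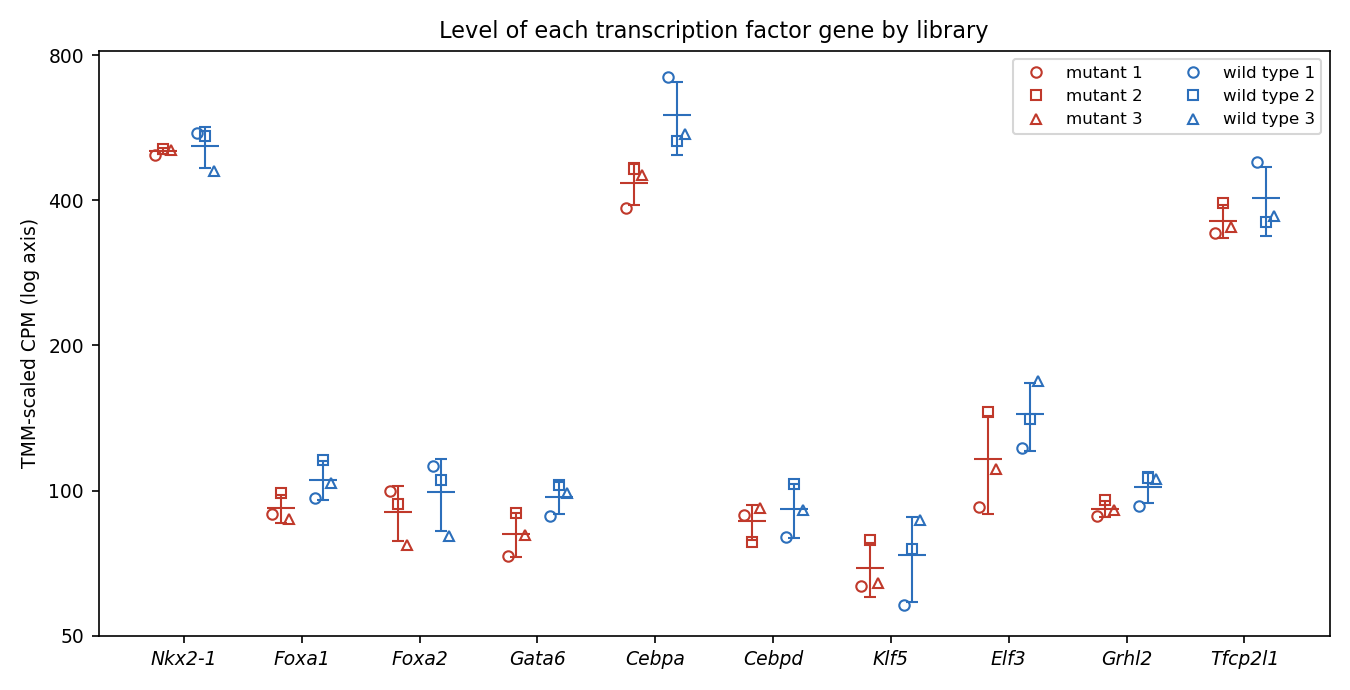
TMM-scaled CPM (log axis) of the 10 genes in the 3 mutant libraries (red) and, to their right, the 3 wild-type libraries (blue), with the mean as a bar and the SD as whiskers. The groups are separate for Cebpa alone, at 386 to 466 CPM in the mutants and 531 to 721 CPM in the wild types.

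Nkx2-1 stood at 497, 512 and 509 TMM-scaled CPM in mutants 1, 2 and 3, against 551, 544 and 460.1 CPM in wild types 1, 2 and 3. The mutant libraries lay within the wild-type range. The log2 fold change was -0.03 ± 0.10 (SE), with a 95% interval of -0.26 to 0.19, which spans 0.833-fold to 1.14-fold (edgeR adjusted p = 0.944). Without mutant 1 it was -0.02. Of the 10 genes Nkx2-1 had the tightest estimate but for Foxa1 and Grhl2, and its SD in the mutant group was only 7.87 CPM.

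The forkhead genes differed little between groups. Foxa1 stood at 89.2, 98.9 and 87.5 CPM in mutants 1, 2 and 3, against 96.4, 116 and 104 CPM in wild types 1, 2 and 3, and the groups overlapped because mutant 2 lay above wild type 1. Its log2 fold change was -0.20 ± 0.09 (95% interval -0.42 to 0.02, edgeR adjusted p = 0.739), and -0.13 without wild type 2. Foxa2, which regulates surfactant genes after birth, stood at 99.7, 93.9 and 77.2 CPM in mutants 1, 2 and 3, against 113, 105 and 80.3 CPM in wild types 1, 2 and 3. The groups overlapped, replicate 3 was the lowest in both, and the mutant was lower in 3 of 3 same-numbered pairs, as it was for Foxa1, Gata6, Grhl2 and Cebpa. It was lower in 2 of 3 for Nkx2-1, Elf3 and Tfcp2l1, and in 1 of 3 for Cebpd and Klf5. The labels state no such pairing, and the share of all tested genes with this pattern was not taken. The log2 fold change of Foxa2 was -0.14 ± 0.15 (edgeR adjusted p = 0.843), and -0.13 ± 0.07 with the replicate number as a block (adjusted p = 0.745). Leaving out 1 library moved it to -0.04 (without mutant 3 or without wild type 1), -0.21 (without mutant 1) or -0.27 (without wild type 3). Per length, Foxa1 made up 41.1% ± 2.9 of the summed level of the pair in mutants, against 42.2% ± 5.0 in wild types (SD, n = 3 each), so the balance between them did not differ beyond its spread.

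Gata6 stood at 73.1, 89.9 and 81.0 CPM in mutants 1, 2 and 3, against 88.7, 103 and 99.0 CPM in wild types 1, 2 and 3. Only mutant 2 reached the wild-type range, just above wild type 1. The log2 fold change was -0.25 ± 0.10, with an unadjusted 95% interval of -0.49 to -0.01 (edgeR adjusted p = 0.737). Without mutant 1 it was -0.18 (-0.42 to 0.05).

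Cebpa stood at 386, 466 and 452 CPM in mutants 1, 2 and 3, against 721, 531 and 549.8 CPM in wild types 1, 2 and 3. It was the only member whose groups did not overlap, and 11.7% of all tested genes did not overlap in either direction, 6.43% with the mutants below. The log2 fold change was -0.47 ± 0.14, with an unadjusted 95% interval of -0.80 to -0.13. It did not pass (edgeR adjusted p = 0.737, DESeq2 adjusted p = 0.138), and 1.29% of the tested genes had a smaller p. Wild type 1 was far above the other wild types, and without it the log2 fold change was -0.32. Without mutant 1, the lowest library, it was -0.39 (-0.72 to -0.06).

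Cebpd, known in many tissues as an acute phase factor induced by cytokines and glucocorticoids, stood at 89.0, 78.2 and 91.8 CPM in mutants 1, 2 and 3, against 80.1, 103 and 90.9 CPM in wild types 1, 2 and 3. The groups overlapped widely, and the log2 fold change was -0.08 ± 0.11 (95% interval -0.35 to 0.18, edgeR adjusted p = 0.876). Cebpb, a relative of Cebpd that binds the same motif, differed by -0.07 ± 0.16 (-0.20 without mutant 1). Per length, Cebpa made up 74.7%, 81.9% and 78.6% of the summed level of Cebpa, Cebpb and Cebpd in mutants 1, 2 and 3, against 84.8%, 80.5% and 82.1% in wild types 1, 2 and 3. Mutant 2 lay above wild type 2 in this share, so the groups overlapped.

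Grhl2 and Tfcp2l1, distant relatives within the Grainyhead and CP2 superfamily, were also slightly lower in mean. Grhl2 stood at 88.5, 95.4 and 91.2 CPM in mutants 1, 2 and 3, against 92.9, 106 and 106 CPM in wild types 1, 2 and 3. It varied least of the 10 within groups, and its log2 fold change was -0.15 ± 0.08 (95% interval -0.34 to 0.04, edgeR adjusted p = 0.739). Tfcp2l1 stood at 342, 395 and 352 CPM in mutants 1, 2 and 3, against 480.2, 361 and 371 CPM in wild types 1, 2 and 3. Mutant 2 lay above wild types 2 and 3, and the difference between the group means rested on wild type 1: the log2 fold change was -0.15 ± 0.13 with it and -0.01 without it.

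Elf3 and Klf5 had the largest residual SD within groups of the 10. Elf3, an ETS factor induced in inflamed epithelium, stood at 92.6, 145 and 111 CPM in mutants 1, 2 and 3, against 123, 141 and 169 CPM in wild types 1, 2 and 3. Mutant 2 exceeded wild types 1 and 2. The log2 fold change was -0.31 ± 0.18 with all libraries (95% interval -0.74 to 0.12, edgeR adjusted p = 0.748) and -0.17 without mutant 1. It was -0.18 without wild type 3 and -0.51 without mutant 2. Klf5, which in mouse lung favours the AT1 fate after injury, stood at 63.4, 79.1 and 64.3 CPM in mutants 1, 2 and 3, against 57.8, 75.5 and 86.8 CPM in wild types 1, 2 and 3. Both the lowest and the highest value were wild type, and the log2 fold change was -0.09 ± 0.16 (95% interval -0.47 to 0.29, edgeR adjusted p = 0.907), and -0.03 without mutant 1.

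**Figure D3:**
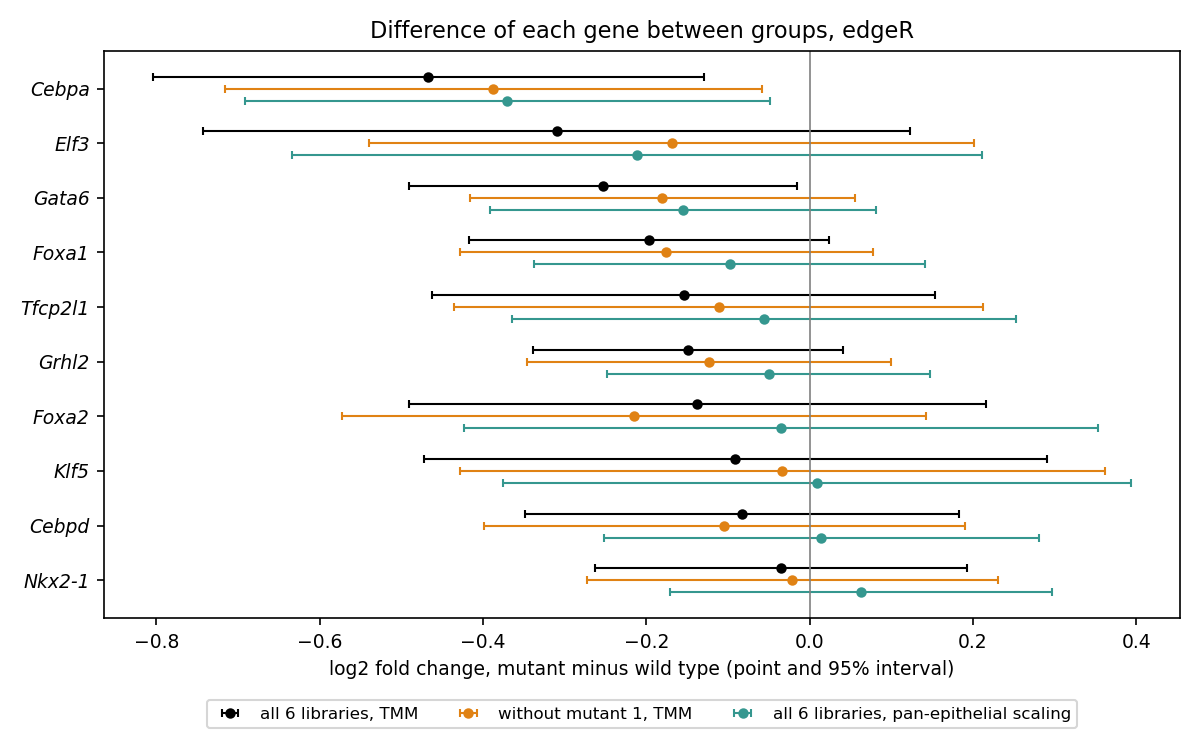
log2 fold change of each gene, mutant minus wild type, as a point with its unadjusted 95% interval from edgeR, for all 6 libraries (black), without mutant 1 (orange) and with libraries scaled on pan-epithelial genes alone (green). The interval of Cebpa excludes 0 in all 3 fits, although its adjusted p stays at 0.558 or above in them, and Nkx2-1, Cebpd and Klf5 lie on the higher side of 0 in the third fit.

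The mutant libraries held more transcripts of other cells through mutant 1, and the members are epithelial genes, so they were also fitted without it and on an epithelial scale. Without mutant 1 all 10 log2 fold changes were again negative, with a median of -0.15, where 51.9% of all genes tested in that fit were negative. When the libraries were scaled on 18 pan-epithelial genes such as Epcam, Cdh1 and Krt8, the members' median was -0.05 and 7 of the 10 were negative, while the median of all tested genes was 0.10 and 27.6% of them were negative. In that scaling Nkx2-1 (0.06 ± 0.10), Cebpd (0.01 ± 0.11) and Klf5 (0.01 ± 0.16) changed sign, and Cebpa remained at -0.37 ± 0.14 (edgeR adjusted p = 0.558). The direction of these small differences thus depended on the scale for 3 members and not for the other 7. All 18 scaling genes, whose median under TMM was -0.08, are in the list below of genes that Grhl2, Elf3 or Klf5 are known to control. This scale is therefore not independent of the members.

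Across libraries the members had differing patterns, and no single library was highest for all of them. Relative to its own mean over the 6 libraries, Cebpa was highest in wild type 1, by 0.51 on the log2 scale, and so were Tfcp2l1 (0.33), Foxa2 (0.26) and Nkx2-1 (0.11). Elf3 and Klf5 were highest in wild type 3, by 0.40 and 0.30, and Klf5 was lowest in wild type 1, at -0.29. Foxa1, Gata6, Grhl2 and Cebpd were highest in wild type 2. Under TMM all 10 genes had their highest value in a wild-type library, where 53.6% of the tested genes of at least 10 CPM did. Wild type 2 is the library that differed in Xist and Ddx3y. Without it the log2 fold change was -0.13 for Foxa1, -0.21 for Gata6, -0.12 for Grhl2 and 0.01 for Cebpd. The part of sex in the 4 genes highest there was not tested.

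**Figure D4:**
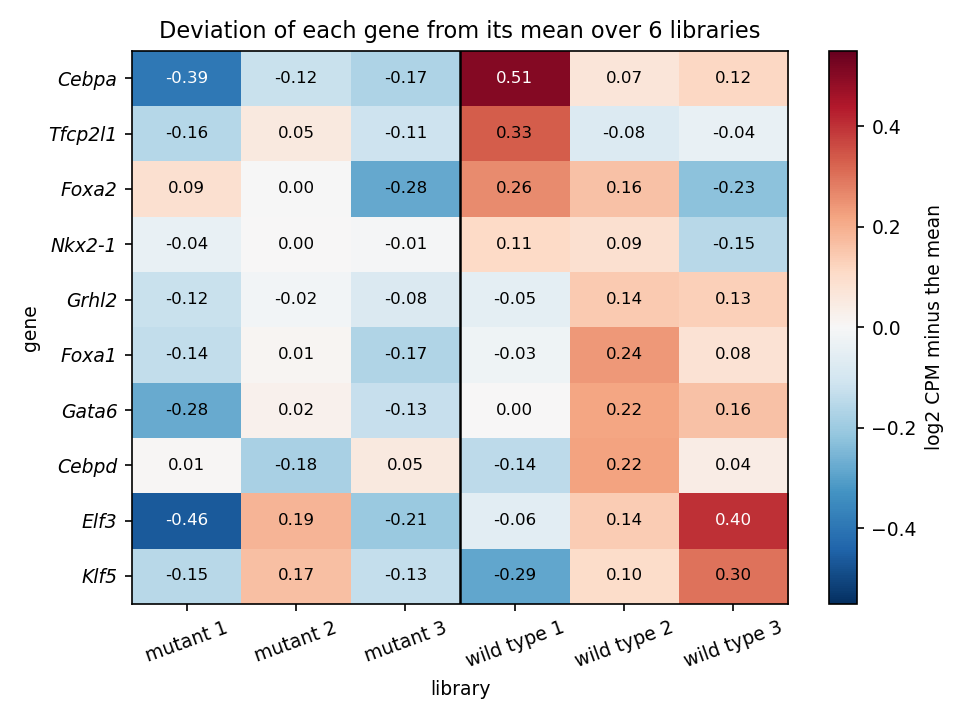
Deviation of log2 CPM (prior count 2) of each gene from its mean over the 6 libraries, mutants left of wild types, red above and blue below the mean. Cebpa ranges from -0.39 in mutant 1 to 0.51 in wild type 1, and Klf5 from -0.29 in wild type 1 to 0.30 in wild type 3.

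The spread within groups ranked the members against 8627 tested genes with a mean of at least 10 CPM. Grhl2 had a residual SD of 0.09 on the log2 scale, below that of most genes (18.4 percentile), followed by Nkx2-1 at 0.10 (28.4 percentile) and Foxa1 at 0.12 (35.9 percentile). Foxa2 at 0.23 (81.8 percentile), Klf5 at 0.25 (85.1 percentile) and Elf3 at 0.28 (89.7 percentile) were more variable than most. Between the highest and the lowest library Cebpa spanned 1.87-fold, Elf3 1.82-fold and Foxa1 1.32-fold.

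Among the members, Foxa1, Gata6 and Grhl2 had the most similar profiles, with root-mean-square differences of 0.06 to 0.08 (log2, centred, over 6 libraries) for their 3 pairs. Foxa2 and Elf3 were the least similar pair, at 0.37. Over the 8626 other genes compared, Cebpa was nearest to Galnt13 (0.05), to the AT2 chemokine gene Cxcl15 (0.07) and to Zdhhc3 (0.07), where its own spread was 0.28. Cxcl15 stood at 7933, 10218 and 9511 CPM in mutants 1, 2 and 3, against 13954, 11814 and 11337 CPM in wild types 1, 2 and 3, with the same highest and lowest library as Cebpa. Nkx2-1 was nearest to Rnpepl1, the junction gene Jup and Lrp10 (0.02 to 0.03, own spread 0.09), and Cebpd to 2810013P06Rik, Tmco7 and Fat2 (0.015 to 0.041, own spread 0.13). Foxa1 was nearest to Zfp810, Whsc2 and Sdc2 (0.04, own spread 0.14), and Foxa2 to Commd5, Rps7 and Mocs1 (0.05, own spread 0.20). For Gata6 these were Hp1bp3, Hsdl2 and Fam165b (0.04 to 0.05, own spread 0.17), and for Grhl2 Fdx1, Osbpl1a and Gtf2h5 (0.02 to 0.03, own spread 0.10). Tfcp2l1 lay nearest to Cables1, Vldlr and C77080 (0.03 to 0.04, own spread 0.16). Klf5 lay nearest to Ttc35, Cetn3 and Ociad2 (0.04 to 0.06, own spread 0.20), and Elf3 to Rybp, Tuba4a and Cyp51 (0.05 to 0.07, own spread 0.28). Such likeness over 6 libraries is a description of these samples.

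Each member was set beside its family to show which relatives the cells expressed. By mean over the 6 libraries, Nkx2-1, Cebpa, Foxa2, Gata6 and Elf3 were the highest of their families per length, and Tfcp2l1 led the Grainyhead and CP2 group. Gata6 was nearly alone: the other GATA genes did not pass the filter, and Gata3 and Gata2 averaged 0.21 and 0.16 CPM per kilobase, with counts of up to 116 and 97 that came from mutant 1. Foxa3, the liver forkhead relative, had at most 22 counts in any library. Among the ETS genes of epithelia, Ehf stood at 59.7 ± 5.39 CPM per kilobase, close to Elf3 at 62.1 ± 12.9, and Elf5 at 30.9 ± 2.53 (SD, n = 6). Ehf lay above Elf3 in mutants 1 and 3 and in wild type 1. Klf5, at 13.7 ± 2.13 CPM per kilobase, ranked 7 of the 8 KLF genes compared by mean level per length. Among those above it were Klf6, an immediate early gene, at 322 ± 65.3, Klf2 (69.7 ± 20.6) and Klf4 (62.9 ± 19.9). Like Klf5, Klf6 and Klf4 had their lowest level in wild type 1 and their highest in wild type 3, at 939 and 1581 CPM for Klf6 and 100.3 and 266 CPM for Klf4.

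**Figure D5:**
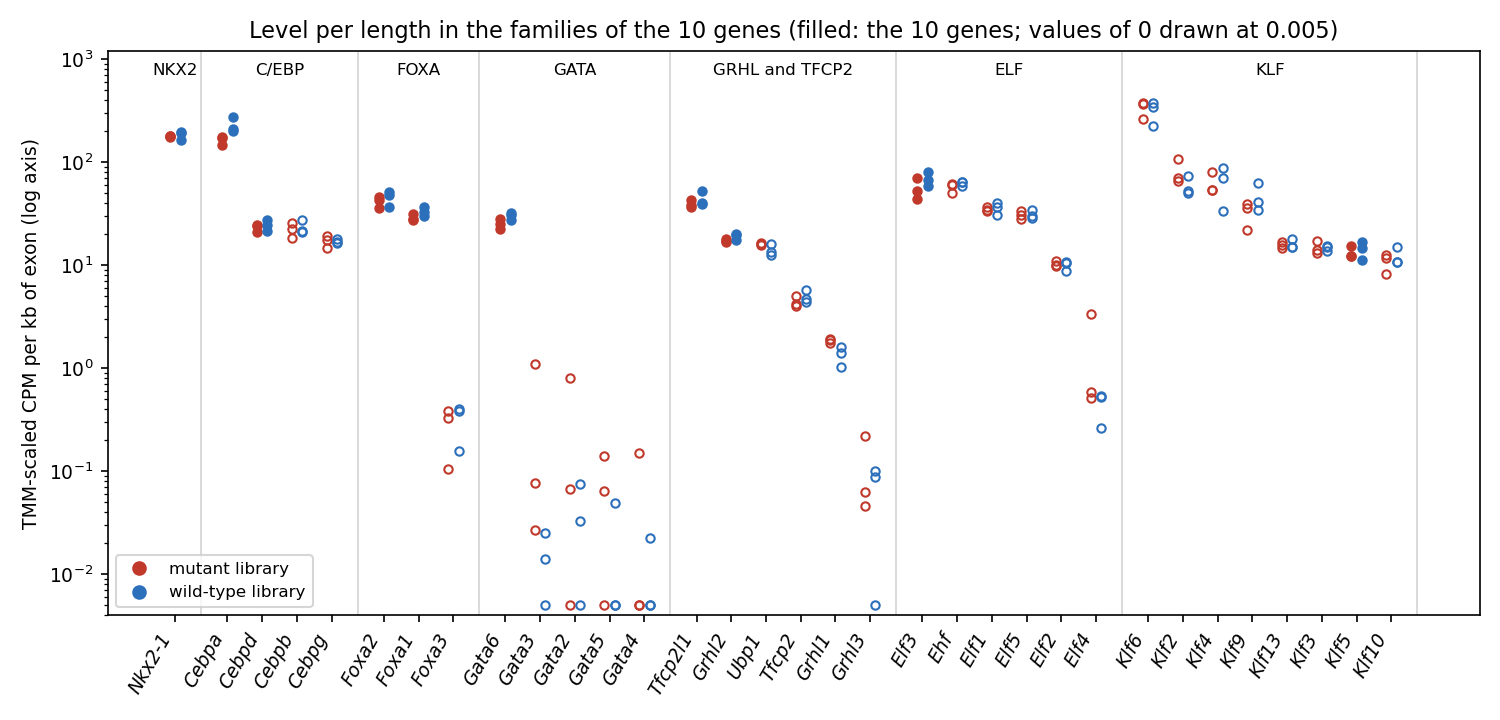
TMM-scaled CPM per kilobase of exon (log axis) in each library for the 10 genes (filled) and their relatives (open) with at least 10 counts in some library, mutants in red left of wild types in blue, grouped by family. Values of 0 are drawn at the bottom. Cebpa and Gata6 lie far above their relatives, while Klf5 at 13.7 lies below Klf6 at 322 CPM per kilobase.

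Further genes of the same programme were examined as 9 lists holding 139 tested genes besides the members. Of these, edgeR and limma-voom called 0 at an adjusted p of 5%, and DESeq2 called 1, Cav1. Without adjustment, 7 were higher and 7 lower at p under 0.05 in edgeR, where 6.58% of all tested genes were at that level in either direction. The median log2 fold change of all tested genes was 0.00, and 48.9% of them were negative.

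AT2 genes known as targets of these factors had mostly lower means in the mutant libraries. Of 18 tested, 16 had a negative and 2 a positive log2 fold change, where 48.9% of all tested genes were negative. The median was -0.16 (-0.09 without mutant 1, with 14 negative), and 0 passed. With pan-epithelial scaling the median was -0.07, with 14 negative, where that of all tested genes was 0.10 and 27.6% of them were negative. Cxcl15 differed by -0.42 ± 0.15, Acly, which supplies acetyl-CoA for lipid synthesis, by -0.35 ± 0.13, and Etv5, an ETS factor that maintains AT2 cells, by -0.20 ± 0.12 (-0.09 without mutant 1). The mucin gene Muc1 was the exception among the leading genes, at 1805, 2083 and 1943 CPM in mutants 1, 2 and 3, against 1592, 1689 and 1636 CPM in wild types 1, 2 and 3 (log2 fold change 0.25 ± 0.10). Of the surfactant genes bound by NKX2-1, Sftpb differed by -0.19 ± 0.14 and Abca3, the lipid transporter of lamellar bodies, by -0.14 ± 0.11. All these genes had an edgeR adjusted p of 0.737 or above.

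AT1 genes, of which NKX2-1 also binds many, leaned the other way. Of 14 tested, 13 had a positive log2 fold change, with a median of 0.19 (0.18 without mutant 1, with 12 positive), and 0 passed in edgeR. The anchoring protein gene Akap5 stood at 39.5, 34.2 and 33.5 CPM in mutants 1, 2 and 3, against 20.2, 26.7 and 16.2 CPM in wild types 1, 2 and 3 (0.77 ± 0.18). Cav1, the main protein of caveolae, stood at 35.9, 24.0 and 17.7 CPM in mutants 1, 2 and 3, against 12.2, 13.9 and 8.31 CPM in wild types 1, 2 and 3 (1.18 ± 0.29, and 0.87 without mutant 1). Each had an edgeR adjusted p of 0.737. Cav1 is also abundant in endothelial cells, whose markers were high in mutant 1, and their part in its level was not tested. Spock2 (1.32 ± 0.69, and 0.26 without mutant 1) and Rtkn2 (0.32 ± 0.21, and 0.48 without it) had the next smallest p-values. With pan-epithelial scaling the median of the list was 0.31 and that of all tested genes 0.10. The summed level of the 8 AT1 markers overlapped between groups. It was 2718, 2927 and 3083 CPM in mutants 1, 2 and 3, against 2840, 2512 and 2887 CPM in wild types 1, 2 and 3.

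Of the epithelial junction and splicing genes that Grhl2, Elf3 or Klf5 are known to control, 15 of 24 tested had a negative and 9 a positive log2 fold change, with a median of -0.08 (-0.05 without mutant 1). Rab25, an epithelial trafficking GTPase, stood at 49.8, 52.3 and 47.0 CPM in mutants 1, 2 and 3, against 62.5, 57.2 and 57.0 CPM in wild types 1, 2 and 3 (-0.24 ± 0.08). The adhesion gene Epcam differed by -0.18 ± 0.07 and the claudin gene Cldn7 by -0.19 ± 0.09 (-0.11 without mutant 1). In each of these 3 the groups did not overlap, and each had an edgeR adjusted p of 0.737 or 0.739. The groups of Dsp, of the same list, did not overlap either, but with the mutants higher (0.16 ± 0.07, edgeR adjusted p = 0.739). Of all tested genes, 11.7% had groups that did not overlap in either direction. E-cadherin (Cdh1), a known direct target of GRHL2, differed by -0.09 ± 0.09 (-0.05 without mutant 1). Scaled on the 18 pan-epithelial genes, all of which are in this list, its median was 0.01.

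Other factors of lung epithelium were evenly placed. Of 29 tested, 17 had a negative and 12 a positive log2 fold change, with a median of -0.02. Without mutant 1, 12 of 28 tested were negative, with a median of 0.01. Foxp1, a forkhead repressor of the lung, stood at 123, 136 and 124 CPM in mutants 1, 2 and 3, against 142, 151 and 148 CPM in wild types 1, 2 and 3 (-0.21 ± 0.07, edgeR adjusted p = 0.737), and these groups did not overlap. Sox2, a factor of conducting airways, and Rarb had positive values (2.11 ± 0.94 and 0.78 ± 0.48) at low levels, Sox2 with 4.97 CPM in mutant 1 and at most 0.81 CPM elsewhere (0.52 without mutant 1). Of 18 tested relatives of the member families, 10 were negative and 8 positive, with a median of -0.01; without mutant 1, 7 were negative and 11 positive, with a median of 0.06. Elf4 (1.76 ± 0.77, and 0.31 without mutant 1), Klf2 (0.47 ± 0.22, and 0.21 without it), Grhl1 (0.45 ± 0.24) and Klf9 (-0.50 ± 0.28, and -0.28 without it) had the smallest p-values, all with an adjusted p of 0.737 or 0.739 in edgeR.

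Of 14 tested cofactors and regulators of the member proteins, 9 were positive and 5 negative, with a median of 0.06. Trib2, which in mouse blood cells promotes loss of the C/EBPα protein, stood at 9.21, 0.77 and 2.19 CPM in mutants 1, 2 and 3, against 1.01, 0.80 and 0.77 CPM in wild types 1, 2 and 3, so that its log2 fold change of 2.24 ± 0.85 rested on mutant 1 (0.79 without it). Without mutant 1, Yap1, a Hippo effector, differed by -0.11 (-0.21 ± 0.10 with it), and the coactivator gene Ncoa3 by 0.15 (0.42 ± 0.21 with it). Acute phase and glucocorticoid response genes were 9 positive and 7 negative of 16, with a median of 0.02 (-0.06 without mutant 1). Socs3, the feedback inhibitor of cytokine receptors, stood at 173, 202 and 157 CPM in mutants 1, 2 and 3, against 219, 234 and 216 CPM in wild types 1, 2 and 3 (-0.33 ± 0.11, edgeR adjusted p = 0.737). Saa3 (1.49 ± 0.53), Fkbp5 (0.72 ± 0.38) and Cp (1.15 ± 0.77) were each highest in mutant 1. Without it Cp turned to -0.29, and Saa3 and Fkbp5 stood at 0.91 and 0.28.

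Genes of gut, stomach and liver, which rise when NKX2-1 is lost from lung epithelium of mice, were mostly low in both groups, apart from Pigr. Of the 18 listed, 8 had at most 3 counts in every library, among them the gut factor genes Cdx2 and Pdx1 with 0 counts and Hnf4a with at most 1. With 0 counts the floor of 3 counts is 0.0977 to 0.133 CPM, which covers counting error only. Pigr, the receptor that carries immunoglobulin across epithelia, stood at 164, 40.4 and 129 CPM in mutants 1, 2 and 3, against 189.6, 86.5 and 144 CPM in wild types 1, 2 and 3. Its groups overlapped, with replicate 2 lowest in both (-0.33 ± 0.49, and -0.72 without mutant 1). The 5 tested genes had negative log2 fold changes with a median of -0.33, among them Vil1 (-0.44 ± 0.66, and -0.29 without mutant 1), Lgals4 (-0.43 ± 0.74, and -1.13 without it) and Gkn3 (-0.20 ± 0.27), none near the threshold. Ctse, which did not pass the filter, was higher in mutants 1 and 3, with 330, 0 and 35 counts in mutants 1, 2 and 3. In wild types 1, 2 and 3 it had 0, 2 and 2 counts. The tested mesenchymal genes opposed by GRHL2 were highest in mutant 1, except Snai1. Snai1 stood at 1.04, 1.45 and 0.85 CPM in mutants 1, 2 and 3, against 1.19, 0.56 and 1.47 CPM in wild types 1, 2 and 3 (0.05 ± 0.51, and 0.10 without mutant 1). Fibronectin (Fn1) stood at 209, 9.67 and 13.9 CPM in mutants 1, 2 and 3, against 5.03, 3.44 and 3.38 CPM in wild types 1, 2 and 3, and vimentin (Vim) at 254, 7.96 and 18.7 CPM in the mutants, against 17.0, 4.29 and 9.61 CPM in the wild types. Without mutant 1 the log2 fold change of Fn1 was 1.58, against 4.30 ± 1.24 with it, and its groups did not overlap in either case. That of Vim was 0.38 without mutant 1 and 3.19 ± 1.27 with it. The 5 tested genes of that list had a median of 2.43 with mutant 1 and of 0.10 without it. Zeb2 (2.43 ± 1.36) and Zeb1 (1.46 ± 0.85), repressors of epithelial genes, turned to -0.97 and -0.11 without mutant 1, in which the fibroblast sum was 218 CPM against at most 6.90 CPM in the other libraries.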

How the data were processed

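RNA-seq libraries of sorted AT2 cells from 3 mutant and 3 wild-type samples were grouped by their titles. Per the labels, TruSeq mRNA libraries were sequenced together on a flow cell, but the labels conflict on the sequencer model. The deposited values were raw counts per gene symbol, 1 file per library. The submitters' processing notes name mm9, CASAVA and DESeq2 without versions, and they give no aligner, counter, annotation or strand setting.

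Genes were filtered with filterByExpr, which left in 99.7% or more of every library's counts, scaled by TMM and tested with edgeR 4.0.16 (quasi-likelihood F-test, two-sided, mutant minus wild type, Benjamini-Hochberg adjustment over 12899 genes, R 4.3.3). Standard errors and 95% intervals came from this fit. The procedure was also run on simulated data. The differences put into them were larger than those of the members, so smaller ones were not covered. DESeq2 1.42.0 and limma-voom (limma 3.58.1) were alternatives. Marker sums, Xist and Ddx3y are given per library total, other levels as TMM-scaled CPM. In the gene lists, 3 genes matched through an older symbol and 2 did not match. Exon lengths were the merged exons of the GENCODE M21 basic set, and promoter windows came from RefSeq (GRCm38.p6).

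The members, lists and tests were chosen with earlier results of these data known. Named were all members, the up to 4 genes of each other list with the smallest p, the 3 genes of at least 10 CPM nearest to each member in profile, and Dlk1. Some genes that this rule names are not reported here. Marker lists are given as sums. Ehf, Elf5, Klf4, Klf6, Foxa3, Gata2, Gata3, Cebpb, Sftpb, Abca3, Aqp5, Cdh1, Cdx2, Pdx1, Hnf4a, Ctse, Snai1, Xist, Ddx3y and Gpr133 were named after their values were seen. Replicate pairs within a group differed by a chi-square of 18.4 to 76.7 per degree of freedom, so none was a duplicate. For libraries with the same number in both groups, deviations from the group means had correlations of 0.31, 0.21 and 0.17. Correlations between libraries of different number were not taken, so these values cannot show a pairing. An alternative fit blocked on the replicate number.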

Additional observations from a re-analysis of the deposited data

How the results depend on the processing

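Over 17 alternatives (scaling, filter, tool, dispersion, block and left-out libraries), 163 of 170 recomputed member log2 fold changes kept their sign and their side of the threshold, and 0 members were called in any. Scaled on pan-epithelial genes, Nkx2-1 (0.063), Cebpd (0.014) and Klf5 (0.0091) reversed and the members' median moved to -0.053. Leaving out each library in turn gave -0.12 to 0.011 for Nkx2-1, reversed without wild type 1, -0.17 to 0.010 for Cebpd, reversed without wild type 2, and -0.24 to 0.044 for Klf5, reversed without wild type 3. Nkx2-1 also reversed without mutant 1 and wild type 2 together (0.022). The cause was not tested. The members' median ran from -0.22 to -0.12 when each library was left out in turn. Over all genes, edgeR called 0 to 1 genes in these fits, the 1 being Gpr133 without wild type 3, and DESeq2 called 46 genes with all libraries and 22 without mutant 1, the last chosen after seeing the data. With the replicate number as a block edgeR called 0 genes, the members' median was -0.15, the lowest adjusted p among them was 0.673 (Gata6), and no call changed. As CPM of the library total, 1 of 20 group means of the members moved by more than 1 SD (Nkx2-1 in the mutants, to 515 CPM). As raw counts rather than per length, 8 of 10 family shares moved by more than 1 SD. With 1264 to 16305 counts per member and library, counting error was small beside the spread between libraries.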

Other observations

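Under TMM each of the 10 genes had its highest value in a wild-type library, where 53.6% of 8627 tested genes of at least 10 CPM did. With CPM of the library total the counts were 10 of 10 against 40.2%, and with pan-epithelial scaling 9 of 10 against 29.6%. The highest library was wild type 1 for 4 genes, wild type 2 for 4 and wild type 3 for 2 under TMM. The lowest under TMM was a mutant library for 8 of 10, where 56.6% of the tested genes of at least 10 CPM had theirs there. Mutant 1 was lowest for 5 of the 8, and the share of all genes lowest in mutant 1 was not taken. A mutant library was lowest for 7 of 10 against 43.3% with CPM of the library total. With pan-epithelial scaling this was 6 of 10 against 32.3%. The 10 genes share the same 6 libraries and are not independent. Summed over the 10 genes, the level was 1821, 2054 and 1917 TMM-scaled CPM in mutants 1, 2 and 3, against 2403, 2186 and 2115 CPM in wild types 1, 2 and 3. This sum is weighted to the most abundant transcripts and includes Cebpa, the only member whose groups did not overlap. With Cebpa left out, mutant 2 lay above wild type 3, so the groups overlapped.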
